A study of Mus musculus with 4 samples.

Results

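The genes described here are those of transcellular calcium absorption and its control by vitamin D: S100g, Trpv6, Atp2b1, Vdr, Cyp27b1 and Cyp24a1. They were taken as the spots on the array that carry these 6 gene names, control spots left out, which gave 8 of 43020 spots for 6 of 30103 genes. S100g was picked for its low value in Pla2g10-deficient mice given dextran sulfate sodium, so its values are given as a description and carry no test. The other 5 genes were added as partners of S100g in the same pathway, with earlier results of these data known.

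Colons of C57BL/6 mice, taken to be 9-week-old males, were measured on 4 single-colour Agilent arrays, and every genotype with every treatment had 1 array. The labels of every group also give an age of 8 weeks for housing. The X-KO mice lacked both copies of Pla2g10, which encodes the secreted phospholipase A2 of group X, and the WT mice carried both. DSS mice received 1% (w/v) dextran sulfate sodium, a compound that injures the colon lining and causes colitis, in their drinking water and were examined on day 7, while naive mice received none. The 4 groups were thus X-KO DSS, WT DSS, X-KO naive and WT naive, and the RNA on an array was a mixture from 3 colons. No group had a second array, so a difference between 2 pools has no replicate check and cannot be separated from the spread between mice.

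In the transcellular route, calcium enters an epithelial cell from the gut lumen through the channel TRPV6, is carried through the cytoplasm by calbindin-D9k, the product of S100g, and is pumped out on the blood side by PMCA1, the product of Atp2b1. The active hormone 1,25-dihydroxyvitamin D binds its nuclear receptor VDR, and in the gut S100g and Trpv6 are among the best known genes that this receptor turns on. The enzyme CYP27B1 makes the active hormone and CYP24A1 breaks it down, and Cyp24a1 is itself a target of the receptor.

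Values are relative signals: the background-subtracted signal of a spot divided by its array's 75th percentile, which therefore has the value 1. They compare 1 probe between arrays and not 1 gene with another. Between 67.7% and 70.4% of spots were well above background on each array, 0 spots were saturated, and all 4 arrays lay on 1 slide with 1 scan date. Repeat spots of 1 probe differed by a median SD of 0.0574 to 0.0635 log2 units within an array, and the small number of arrays limits the precision of every value. Pla2g10, read by a probe at 13715169 to 13715228 of chromosome 16 (mm9), stood at 0.997 in X-KO DSS, 19.1 in WT DSS, 1.70 in X-KO naive and 15.9 in WT naive, lower in both X-KO pools. No label says which part of Pla2g10 was deleted, so it is unknown whether the probe reads that part. All 8 pan-epithelial markers and 11 of 12 markers of absorptive colonocytes were well above background on every array, so markers of the labelled tissue were present, as were those of muscle and stroma.

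S100g was represented by 2 probes. Both lie on the minus strand of chromosome X in mm9, at 159399938 to 159399997 (A_55_P2111163) and at 159399924 to 159399983 (A_55_P2013236), and they overlap in 46 of 60 bases. They are therefore 2 readings of almost the same stretch and not independent checks. The 30 bases that open the shared stretch are shown because both readings of S100g rest on them, with the letters AATAAA of the polyadenylation signal in capitals.
S100g, both probes: atacatactgttAATAAAgcaagttcggag

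The S100g signal was 1.39 in X-KO DSS, 18.5 in WT DSS, 6.46 in X-KO naive and 10.9 in WT naive by the brighter probe. The overlapping probe gave 1.16 in X-KO DSS, 15.6 in WT DSS, 5.34 in X-KO naive and 8.93 in WT naive. On both probes the order from high to low was WT DSS, WT naive, X-KO naive and X-KO DSS. The scanner's own error was 10% of the signal for each of these spots, and none of them was marked as an outlier. In bulk tissue, fewer cells that express a gene and less of its RNA per cell cannot be told apart.

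In mice given DSS, the X-KO pool had 13.4-fold less S100g signal than the WT pool, a log2 ratio of -3.74 with a 95% range of -4.14 to -3.34 from scanner error alone. Of the 19844 genes measured on both arrays, 2 had a lower ratio: Pla2g10 itself at -4.26 and the transcript named DQ125310 in the files at -3.82. S100g was chosen for its value in X-KO DSS, so its place describes that choice. In naive mice the same comparison gave -0.76, a 1.69-fold lower signal in X-KO, with a range of -1.16 to -0.36. The naive difference thus had the same direction and was the smaller of both.

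The treatment comparisons of S100g pointed in opposite directions in the 2 genotypes. In X-KO mice the signal was 4.66-fold lower with DSS than without it (log2 ratio -2.22, range -2.62 to -1.82). In WT mice it was 1.70-fold higher with DSS (log2 ratio 0.76, range 0.36 to 1.16), which stayed short of 2-fold. The response of X-KO minus that of WT was -2.98 log2 units on the brighter probe and -3.01 on the other, each with a scanner error of 0.289. Of the 19322 genes measured on all 4 arrays, 10 had a lower difference of responses. This place includes the X-KO DSS value for which S100g was chosen, so it describes that choice. A pattern of at least 2-fold lower with DSS in X-KO and not lower in WT was shared by 89 genes, out of 805 that were at least 2-fold lower in X-KO.

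**Figure D1:**
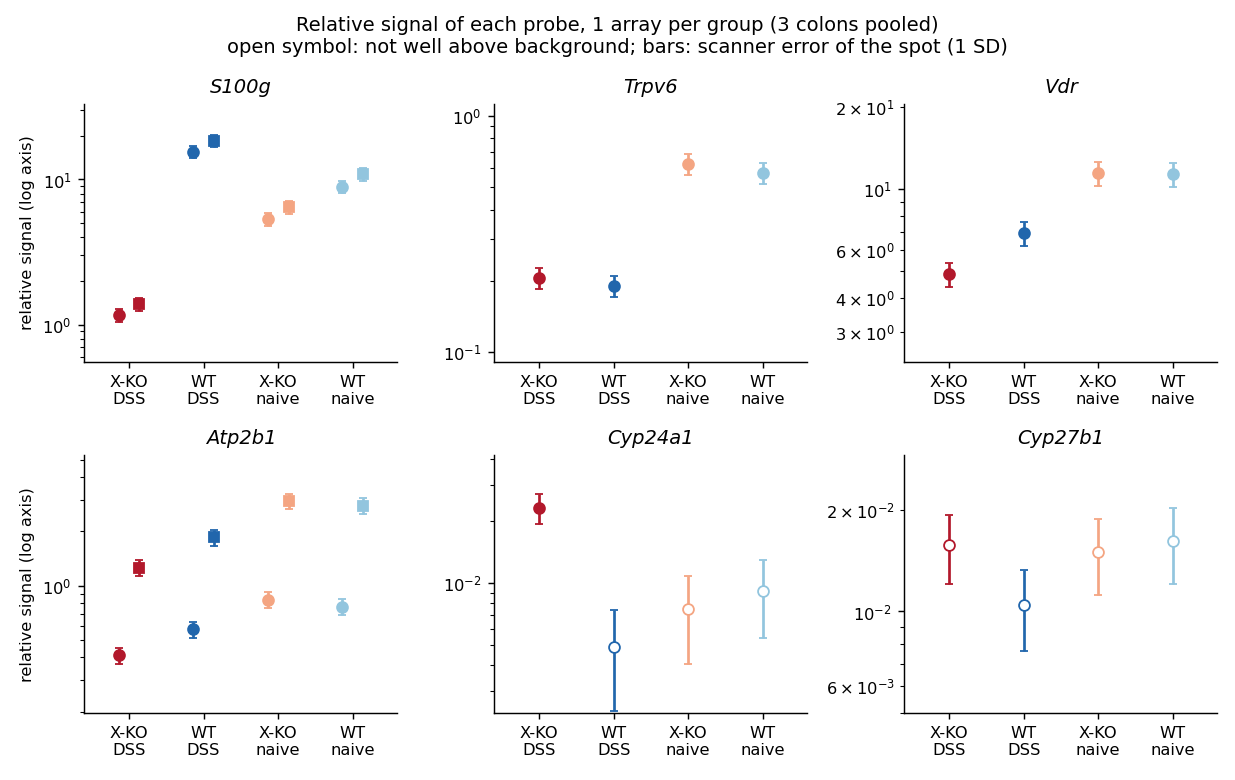
Relative signal of every probe of the 6 genes (log axis), with 1 point per array and bars for the scanner's error of the spot (1 SD); groups run X-KO DSS, WT DSS, X-KO naive and WT naive, and open points were not well above background. Both S100g probes are lowest in X-KO DSS (1.39 and 1.16) and highest in WT DSS (18.5 and 15.6), whereas Trpv6 is lower in both DSS pools.

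Trpv6, the entry channel, was read by 1 probe on the minus strand of chromosome 6, at 41570624 to 41570683 (mm9), whose last 30 bases also hold the letters AATAAA. It is shown because the S100g probes hold the same letters.
Trpv6, A_55_P2111444: accttccAATAAAatcatttcctgatcccc

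The Trpv6 signal was 0.205 in X-KO DSS, 0.190 in WT DSS, 0.624 in X-KO naive and 0.572 in WT naive. Both DSS pools lay below both naive pools, and within each treatment the genotypes differed by less than the scanner error (with quantile normalization the sign in DSS mice turned, to -0.01). With DSS the signal was 3.04-fold lower in X-KO (log2 ratio -1.60) and 3.00-fold lower in WT (-1.59), so that the responses of the genotypes differed by -0.02 with an error of 0.290. X-KO over WT gave 0.11 with DSS (range -0.29 to 0.51) and 0.13 in naive mice (range -0.28 to 0.53). The channel and the cytoplasmic carrier thus had different patterns: Trpv6 was lower with DSS whatever the genotype, while S100g was lower with DSS in the X-KO pool alone.

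Atp2b1, the exit pump, was read by 2 probes that lie far apart on the plus strand of chromosome 10. The probe at 98431670 to 98431729 gave 1.26 in X-KO DSS, 1.85 in WT DSS, 2.95 in X-KO naive and 2.77 in WT naive. The probe at 98485775 to 98485834 gave 0.410 in X-KO DSS, 0.572 in WT DSS, 0.834 in X-KO naive and 0.765 in WT naive. On both probes the DSS pools were below the naive pools and X-KO DSS was the lowest.

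For X-KO with DSS over X-KO naive, the Atp2b1 log2 ratios were -1.23 and -1.02, which are 2.34-fold and 2.03-fold lower signals. For WT with DSS over WT naive they were -0.58 and -0.42, or 1.5-fold and 1.34-fold lower. Among DSS mice X-KO stood below WT by -0.56 and -0.48, with ranges that leave out 0 on scanner error (-0.96 to -0.16 and -0.88 to -0.08). In naive mice the genotypes differed by 0.09 and 0.13, within that error.

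Vdr, the vitamin D receptor, was read by a probe on the minus strand of chromosome 15, at 97685136 to 97685195. Its signal was 4.87 in X-KO DSS, 6.89 in WT DSS, 11.5 in X-KO naive and 11.4 in WT naive. Both DSS pools were again below the naive pools, and the naive pools did not differ beyond scanner error (log2 ratio 0.01, turning sign under median scaling and quantile normalization). With DSS the signal was 2.35-fold lower in X-KO (-1.23) and 1.65-fold lower in WT (-0.72). Among DSS mice the X-KO pool stood at -0.50 against WT, with a range of -0.90 to -0.10.

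The difference of the DSS responses, X-KO minus WT, was -0.51 for Vdr and -0.64 and -0.60 for the Atp2b1 probes, each with an error of 0.289. These values of Vdr and Atp2b1 had the sign of the S100g value of -2.98 and were smaller. Trpv6 stood at -0.02, within its error of 0.290. Cyp24a1, dim on every array but X-KO DSS, is left out. The S100g value rests on the X-KO DSS signal for which S100g was chosen, so a shared sign is no result about the members.

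Of the enzymes of the hormone, Cyp27b1 could not be measured. Its probe, at 126489922 to 126489981 on chromosome 10, gave 0.0157 in X-KO DSS, 0.0105 in WT DSS, 0.0150 in X-KO naive and 0.0162 in WT naive, and was not well above background on any array. No fold is given for it, and a difference in Cyp27b1 was not detectable at this signal.

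Cyp24a1, the enzyme that breaks the hormone down, was well above background only in X-KO DSS. Its probe, at 170308865 to 170308924 on chromosome 2, gave 0.0233 in X-KO DSS, against 0.00489 in WT DSS, 0.00747 in X-KO naive and 0.00915 in WT naive. For every bound on a dim gene, the lowest well-measured signal of the dim array took the place of the dim value. By these bounds the X-KO DSS signal was 2.06-fold higher than in WT DSS and 1.51-fold higher than in X-KO naive. The first of these bounds fell under 2-fold with median scaling (log2 0.95) and with normexp correction followed by quantile scaling (0.64). The scanner error of the X-KO DSS spot was 16.6%. Bounds of this kind leave out scanner error, so they are not lower limits. From the scanner error of both spots, the log2 ratio of the printed signals had a 95% range of 0.73 to 3.78 against WT DSS. Against X-KO naive it was 0.26 to 3.02. The scanner error was 51.3% for the dim spot in WT DSS and 45.8% for that in X-KO naive. At errors of that size these log2 ranges are not reliable. Cyp24a1 also passed the filter through X-KO DSS alone, where it is high, so the ranges are no support for an increase.

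With 5 of the 6 genes kept after the filter on dim probes, counts past 2-fold were as follows. In X-KO DSS over WT DSS 1 gene was lower (S100g, which was chosen on this contrast) and 1 higher (Cyp24a1, by its bound). Of all 22162 genes 2.19% were lower and 5.09% higher. In X-KO naive over WT naive 0 were past 2-fold in either direction, beside 1.04% lower and 1.13% higher. Neither genotype count says anything about the members as a set, since S100g was chosen for its value in X-KO DSS. In X-KO DSS over X-KO naive 4 were lower (S100g, Trpv6, Vdr and Atp2b1) and 0 higher, beside 4.99% lower and 5.67% higher. That count includes S100g by the X-KO DSS value for which it was chosen, so it is no result about the members as a set. In WT DSS over WT naive 1 was lower (Trpv6) and 0 higher, beside 5.22% lower and 3.4% higher. Cyp24a1 passed the filter through X-KO DSS alone, the group where it is high.

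**Figure D2:**
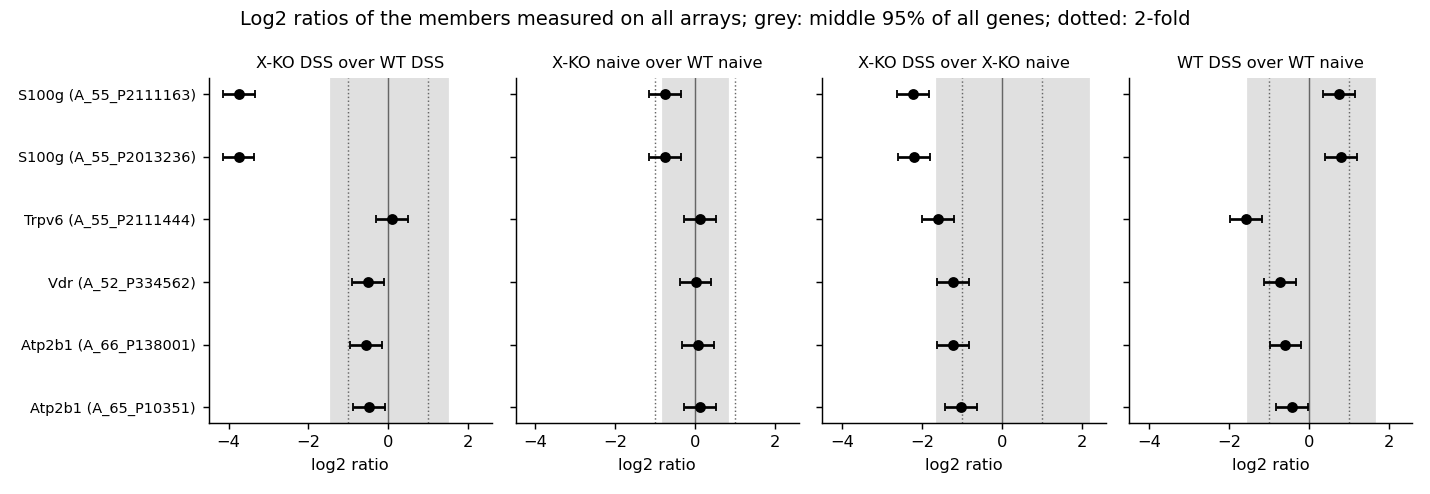
Log2 ratios of the 6 probes of the 4 genes measured on all arrays, in 1 panel per comparison, with bars for the 95% range from scanner error; grey marks the middle 95% of all genes and dotted lines mark 2-fold. S100g, chosen for its value in X-KO DSS, lies outside the grey band in X-KO DSS over WT DSS (-3.74) and over X-KO naive (-2.22). Trpv6 lies outside it in WT DSS over WT naive (-1.59).

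S100g was chosen for its value in X-KO DSS. Its ratio of -3.74 in X-KO DSS over WT DSS lay below the middle 95% of all 22162 genes, from -1.42 to 1.51. In naive mice the ratio of -0.76 lay inside that range (-0.79 to 0.83). Trpv6 at -1.59 lay just below the range of WT DSS over WT naive (-1.54 to 1.65), and at -1.60 just inside that of X-KO DSS over X-KO naive (-1.62 to 2.20). Vdr and Atp2b1 lay within the range in every comparison. These ranges include genes that were dim on some arrays. In X-KO DSS over X-KO naive 19603 genes were measured on both arrays. Of these, 189 had a lower ratio than Trpv6, 447 than Vdr and 455 than Atp2b1. In X-KO naive over WT naive 137 of 19846 such genes had a lower ratio than S100g.

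With 2 arrays at each treatment and 2 at each genotype, a mean DSS effect and a mean genotype effect were fitted with limma over all genes. The fit was additive, with 1 degree of freedom left for the residual and Benjamini-Hochberg adjustment. That residual is how far the DSS responses of the 2 genotypes differ, and limma pools it across genes. The p-values therefore do not measure the spread between mice, and a gene with like responses in both genotypes gets a small error. For the DSS effect 0% of the 22162 genes passed an adjusted p of 0.05, while 4090 had an unadjusted p under 0.05 (11.9% of genes lower and 6.51% higher). The DSS effect on Trpv6 was -1.60 ± 0.16 log2 units (SE), with an unadjusted p of 0.00163 and an adjusted p of 0.201 by limma. Vdr had -0.98 ± 0.21 and an adjusted p of 0.227, and Atp2b1 had -0.91 ± 0.24 and an adjusted p of 0.239 by limma. All 3 were lower with DSS in both genotypes and none passed, which does not show that they did not differ.

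The call depends on how the variance is pooled across genes. With an intensity trend and robust pooling, limma gave adjusted p-values of 0.00433 for Trpv6, 0.0248 for Vdr and 0.0419 for Atp2b1, beside 4.12% of genes lower and 2.79% higher. With genes kept only if well above background on all arrays, limma gave 0.0157 for Trpv6, 0.0514 for Vdr and 0.0676 for Atp2b1, beside 3.31% lower and 2.31% higher. No p is given for Cyp24a1, which passed the filter through X-KO DSS alone, the group where it is high.

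For the genotype effect 0% of genes passed in the main limma fit, and 850 had an unadjusted p under 0.05 (1.27% of genes lower and 2.56% higher). Trpv6 (0.12), Vdr (-0.24) and Atp2b1 (-0.24) each had an adjusted p of 0.999 by limma. With a trend and robust pooling 0% of genes were lower and 0.0316% higher, and none of these named genes passed. S100g and Cyp24a1 were given no p. The additive fit has no term for responses that differ between the genotypes. In these single pools the S100g signal moved in opposite directions, so its DSS effect of -0.73 averages both and has a standard error of 0.85. Whether its response differs beyond the spread between mice was not tested.

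The promoters of S100g and Trpv6 are shown because both genes are known targets of the vitamin D receptor and were lower in X-KO DSS than in X-KO naive, but differed in WT. RefSeq promoters of the GRCm38.p6 assembly were matched by symbol for S100g, Trpv6, Vdr, Cyp27b1 and Atp2b1. Each sequence runs from 250 bases before the annotated start to 30 bases after it, on the gene's strand, and lies on the minus strand of the chromosome. Capitals mark AGGTCA, a half-site letter string of nuclear receptors, its reverse complement TGACCT, and TATAAA.
S100g, chrX:162964570-162964849: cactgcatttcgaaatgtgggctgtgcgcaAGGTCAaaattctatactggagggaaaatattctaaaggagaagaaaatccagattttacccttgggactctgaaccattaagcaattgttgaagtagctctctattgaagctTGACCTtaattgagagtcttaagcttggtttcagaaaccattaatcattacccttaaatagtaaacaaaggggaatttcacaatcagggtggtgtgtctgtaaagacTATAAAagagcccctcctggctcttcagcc
Trpv6, chr6:41636376-41636655: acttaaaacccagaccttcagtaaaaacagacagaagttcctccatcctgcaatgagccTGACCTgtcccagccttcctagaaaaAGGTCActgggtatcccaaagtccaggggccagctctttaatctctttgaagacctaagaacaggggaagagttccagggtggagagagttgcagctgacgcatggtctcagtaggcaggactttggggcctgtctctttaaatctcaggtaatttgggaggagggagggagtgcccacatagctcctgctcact

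Searched on both strands of 250 bases before to 50 bases after each start, AGGTCA occurred in the S100g and Trpv6 promoters and in none of the other 3 members' promoters, against 16.3% of all 32851 mouse promoters. In S100g the matches lay 220 to 215 and 107 to 102 bases before the start, and in Trpv6 191 to 186 and 165 to 160 bases before it. TATAAA occurred in S100g alone, at bases 1 to 6 after the annotated start, against 13.6% of promoters. The full element of the vitamin D receptor with its RXR partner, a direct repeat of half-sites with 3 bases between them (DR3), whose half-sites overlap AGGTCA in their letters, was found in 0 of 5 members and in 0.0396% of all promoters. These are letter matches in a short window and carry no statement on binding.

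Other genes of calcium movement were mostly near 0. Of 20 listed calcium transport genes 18 were measured, and their median log2 ratio was -0.13 in X-KO DSS over WT DSS, -0.01 in X-KO naive over WT naive, -0.27 in X-KO DSS over X-KO naive and -0.26 in WT DSS over WT naive. The medians of all genes were -0.09, 0.02, -0.13 and -0.02 in the same order. Past 2-fold were the voltage-gated calcium channel gene Cacna1d, higher in X-KO DSS than in WT DSS (1.07), and the sodium-calcium exchanger gene Slc8a1, lower in X-KO DSS than in X-KO naive (-1.15). The third was Calb1, the gene of the larger vitamin D-dependent calbindin, lower in WT DSS than in WT naive (-1.15).

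Calb1 is related in function to S100g. Its signal was 0.0112 in X-KO DSS, where it was not well above background, 0.0201 in WT DSS, 0.0232 in X-KO naive and 0.0446 in WT naive. It was thus lower in WT DSS than in WT naive, the reverse of the S100g values in WT. Markers of kidney tubule, the other tissue known for calbindins and TRPV channels, were measured for 5 of 8 genes and summed to 0.246 in X-KO DSS, 0.222 in WT DSS, 0.237 in X-KO naive and 0.263 in WT naive.

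The 8 listed partners of the TRPV6 protein, such as calmodulins and the S100a10 and annexin A2 pair, were all measured and none was past 2-fold. Their median was 0.14 in X-KO DSS over X-KO naive and 0.49 in WT DSS over WT naive, above 0 while Trpv6 itself stood at -1.60 and -1.59. The WT value fell to 0.28 with quantile normalization and to 0.25 with normexp and quantile normalization.

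Of 14 genes of vitamin D handling 12 were measured, and 1 was past 2-fold. It was Cubn, lower with DSS in X-KO, beside 4.99% of all genes, and in WT, beside 5.22%. Cubn encodes cubilin, a receptor that takes up the vitamin D binding protein in kidney and vitamin B12 in ileum. Its signal was 0.126 in X-KO DSS, 0.155 in WT DSS, 0.483 in X-KO naive and 0.548 in WT naive, 3.85-fold lower with DSS in X-KO and 3.53-fold lower in WT. Like Trpv6, it was lower with DSS in both genotypes. The list's medians were -0.29 in X-KO DSS over X-KO naive and -0.05 in WT DSS over WT naive.

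Of 12 listed targets of the vitamin D receptor beyond the members, 11 were measured. In X-KO DSS over X-KO naive 4 were at least 2-fold lower and 2 higher, beside 4.99% and 5.67% of all genes, with a median of -0.95 (-0.74 with dim genes at their bounds, -0.39 with normexp and quantile normalization). In WT DSS over WT naive 2 were lower and 0 higher, beside 5.22% and 3.4% of all genes, with a median of -0.11. X-KO DSS over WT DSS had 1 lower and 1 higher, beside 2.19% and 5.09% of all genes, with a median of -0.38. X-KO naive over WT naive had 0 in either direction with a median of -0.04.

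Slc30a10, a manganese exporter and vitamin D-induced gene of the gut, had its lowest value in X-KO DSS. Its signal was 0.172 in X-KO DSS, 0.446 in WT DSS, 0.489 in X-KO naive and 0.480 in WT naive, so that X-KO DSS stood apart and the other 3 pools lay close together. Its log2 ratio was -1.37 in X-KO DSS over WT DSS and -1.51 in X-KO DSS over X-KO naive, against -0.11 in WT DSS over WT naive.

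Both efflux pump genes of the list were lower with DSS in each genotype. Abcb1a stood at 6.98 in X-KO DSS, 10.8 in WT DSS, 18.4 in X-KO naive and 19.0 in WT naive, log2 ratios of -1.40 in X-KO and -0.81 in WT. Abcc2 stood at 0.0210 in X-KO DSS, 0.0345 in WT DSS, 0.0800 in X-KO naive and 0.0866 in WT naive, log2 ratios of -1.93 and -1.33.

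The remaining targets past 2-fold differed in direction. Spp1, the gene of the secreted phosphoprotein osteopontin, was 6.04-fold higher in X-KO DSS than in WT DSS. By its bound it was 6.31-fold higher in X-KO DSS than in X-KO naive, where it was not well above background. Thbd (higher, 1.07) and the cell cycle inhibitor gene Cdkn1a (lower, -1.0) complete the counts in X-KO DSS over X-KO naive, and were named after their values were seen. Slc34a2, a phosphate carrier, completes that of WT DSS over WT naive. It was 2.26-fold lower by its bound, since it was at background in both DSS pools.

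Of 9 phosphate and magnesium transport genes, all measured, 2 were lower with DSS in X-KO (4.99% of all genes) and 2 in WT (5.22%), and 0 were higher. Slc20a1, a sodium-phosphate carrier, stood at 5.85 in X-KO DSS, 12.8 in WT DSS, 31.1 in X-KO naive and 29.8 in WT naive, log2 ratios of -2.41 in X-KO and -1.22 in WT. Trpm6, the magnesium channel of colon and kidney, stood at 1.49 in X-KO DSS, 2.97 in WT DSS, 4.72 in X-KO naive and 4.25 in WT naive, -1.67 in X-KO and -0.52 in WT. Both had their lowest value in X-KO DSS and their next lowest in WT DSS, an order that Vdr and Atp2b1 share and S100g does not.

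**Figure D3:**
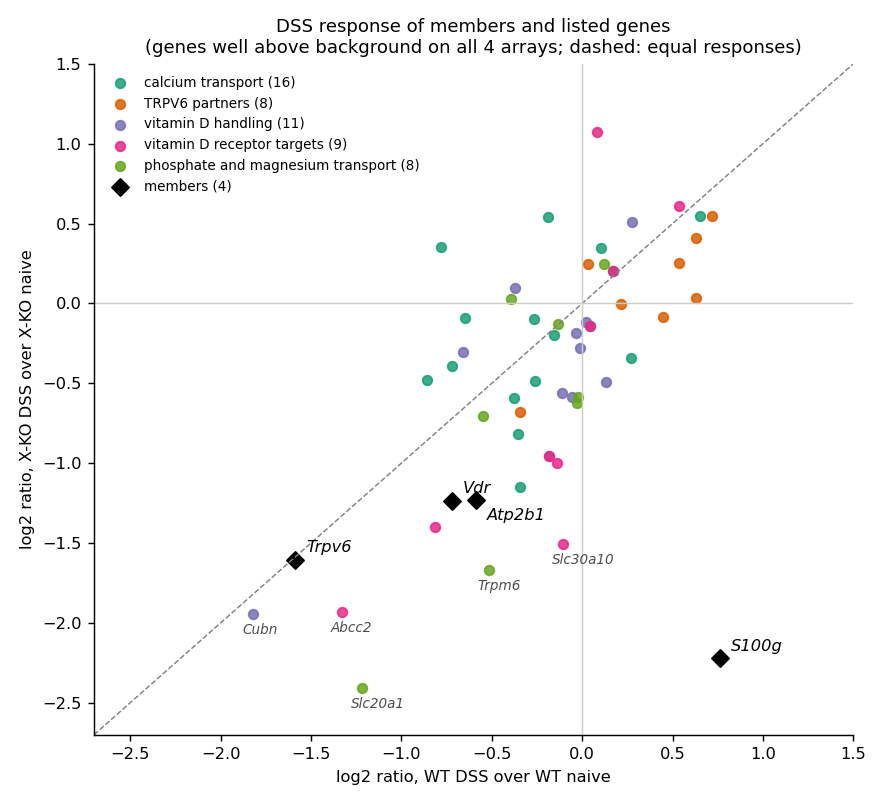
Log2 ratio of X-KO DSS over X-KO naive (vertical axis) against that of WT DSS over WT naive (horizontal axis) for the 4 members and the listed genes that were well above background on all 4 arrays; the dashed line marks equal responses. S100g stands at the lower right, at -2.22 in X-KO and 0.76 in WT, while Trpv6 lies on the line at -1.60 and -1.59.

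Of the other S100 genes, 14 of 14 were measured, and none was lower past 2-fold in any comparison. In X-KO DSS over X-KO naive 4 were higher (S100a8, S100a9, S100a11 and S100a4), beside 5.67% of all genes, and in WT DSS over WT naive 3 (S100a8, S100a9 and S100a11), beside 3.4%. S100a8, a neutrophil protein, was 5.84-fold higher in X-KO DSS than in WT DSS, where S100g was 13.4-fold lower. In that comparison 2 of the family were past 2-fold higher, beside 5.09% of all genes. In X-KO naive over WT naive 2 were higher as well, up to a log2 ratio of 2.08, beside 1.13% of all genes. The median of the family was -0.15 in X-KO DSS over WT DSS.

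S100g is an epithelial gene, and epithelial markers also differed between these pools. The 8 pan-epithelial markers summed to 307 in X-KO DSS, 390 in WT DSS, 385 in X-KO naive and 327 in WT naive, with a median log2 ratio of -0.28 in X-KO DSS over WT DSS. The 11 measured colonocyte markers summed to 346 in X-KO DSS, 512 in WT DSS, 553 in X-KO naive and 469 in WT naive, with a median of -0.57. The 2 of them past 2-fold there were the water channel gene Aqp8 (-1.11) and the chloride-bicarbonate exchanger gene Slc26a3 (-1.02).

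The S100g ratio in X-KO DSS over WT DSS differed by -3.46 log2 units from the pan-epithelial median, by -3.17 from the colonocyte median, by -3.41 from the goblet cell median and by -3.33 from the median of small intestinal enterocyte markers. S100g was chosen for this low value, so these differences describe it and compare nothing. Vdr (-0.50) and Atp2b1 (-0.56) lay within the spread of the colonocyte markers in that comparison, and 7 and 6 of the 11 were lower than they were. In WT DSS over WT naive S100g was above all 8 pan-epithelial and all 11 colonocyte markers, while Trpv6 was below all of them.

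Small intestinal enterocyte markers, 9 of 11 measured, summed to 51.8 in X-KO DSS, 68.8 in WT DSS, 80.0 in X-KO naive and 60.1 in WT naive. They are given because the small intestine is the tissue best known for S100g. In X-KO DSS over X-KO naive 4 of the 9 were at least 2-fold lower and 1 higher, beside 4.99% and 5.67% of all genes. Their median was -0.73, against -0.13 for all genes, with a range of -2.26 to 1.34, and 1 of them had a lower ratio than S100g. In WT DSS over WT naive 2 were lower and 0 higher, beside 5.22% and 3.4% of all genes, with a median of -0.36, against -0.02 for all genes.

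Markers of other tissues moved with the same contrast. All 8 pancreatic acinar markers were at least 2-fold lower in X-KO DSS than in WT DSS (median -2.43), and they summed to 8.53 in X-KO DSS, 30.8 in WT DSS, 6.75 in X-KO naive and 7.68 in WT naive. Unlike S100g, 7 of the 8 were higher with DSS in both genotypes. Smooth muscle markers summed to 185 in X-KO DSS, 301 in WT DSS, 312 in X-KO naive and 320 in WT naive. Of 6 measured skeletal muscle markers 3 were at least 2-fold lower in X-KO DSS than in WT DSS (median -0.96), and 5 were in X-KO DSS over X-KO naive (median -1.85). The 7 measured adipocyte markers had a median of -0.21 in X-KO DSS over WT DSS, but of 1.69 in X-KO DSS over X-KO naive and 1.72 in WT DSS over WT naive.

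Blood and immune markers ran the other way. The 6 measured erythrocyte markers summed to 105 in X-KO DSS, 35.0 in WT DSS, 14.5 in X-KO naive and 16.6 in WT naive, and the 8 neutrophil markers to 70.8 in X-KO DSS, 32.3 in WT DSS, 42.4 in X-KO naive and 35.1 in WT naive. These sums follow the brightest probes: 6 of the 8 neutrophil markers were at least 2-fold higher in X-KO DSS than in WT DSS (median 2.46), and 6 of 8 were in WT DSS over WT naive (median 2.58, or 1.37 with dim genes at their bounds). The part of these differences in cell makeup in the values of S100g was not tested.

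**Figure D4:**
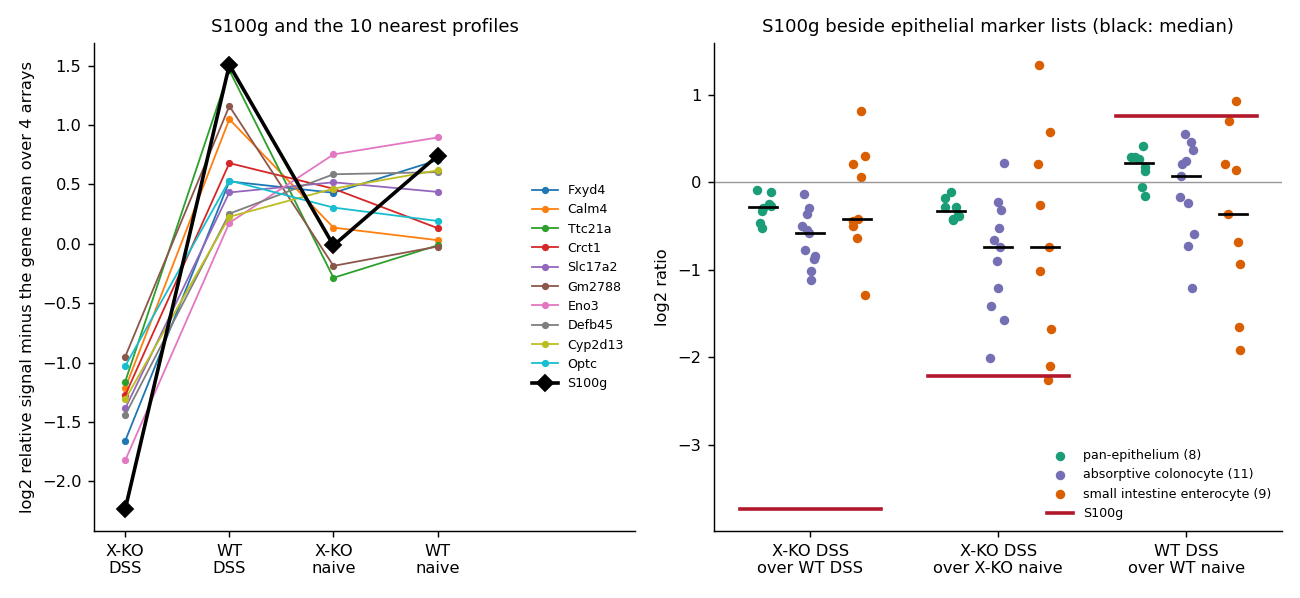
Left, log2 relative signal minus the gene's mean over the 4 arrays for S100g (black) and the 10 genes of nearest profile; right, log2 ratios of 3 epithelial marker lists (points, black bar at the median) beside S100g (red line) in 3 comparisons. S100g, chosen for its value in X-KO DSS, stands at -3.74 in X-KO DSS over WT DSS, and it lies above all pan-epithelial and colonocyte markers in WT DSS over WT naive (0.76).

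Profiles over the 4 arrays were compared by the distance between log2 signals, each centred on its gene's mean, among 19322 genes measured on all arrays. Vdr and Atp2b1 were close together at 0.0955 log2 units, and Trpv6 lay 0.758 from Vdr and 0.835 from Atp2b1. S100g lay 2.33 from Atp2b1, 2.37 from Vdr and 2.92 from Trpv6. The distances of S100g include the X-KO DSS value for which it was chosen, so they describe that choice.

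The gene of profile nearest to S100g was Fxyd4, a regulator of the sodium pump in colon and kidney, at a distance of 1.22. Its signal was 2.19 in X-KO DSS, 9.94 in WT DSS, 9.31 in X-KO naive and 11.3 in WT naive, so that X-KO DSS alone stood apart. Its log2 ratio was -2.18 in X-KO DSS over WT DSS and -0.18 in WT DSS over WT naive. Next came Calm4, a calmodulin-like gene, at 1.33, with 0.0612 in X-KO DSS, 0.294 in WT DSS, 0.156 in X-KO naive and 0.145 in WT naive. Calm4 shared with S100g both a lower signal with DSS in X-KO (-1.35) and a higher one in WT (1.02). Fxyd4 and Calm4 were picked as near profiles, so their likeness to S100g describes that choice.

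The others, in order, were Ttc21a, Crct1, Slc17a2, Gm2788, Eno3, Defb45, Cyp2d13 and Optc, at distances of 1.34 to 1.67. Eno3, an enolase gene known from muscle, stood at 3.12 in X-KO DSS, 12.5 in WT DSS, 18.6 in X-KO naive and 20.5 in WT naive. All 10 were lower in X-KO DSS than in WT DSS, by log2 ratios from -2.62 in Ttc21a to -1.54 in Cyp2d13. They were picked for profiles near that of S100g, so this direction follows from the choice and is no separate result.

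The other members had far closer neighbours. Trpv6 was nearest to Rnf152 (0.0175), Abcc6 (0.0821) and Sh3bp1 (0.0939). Vdr was nearest to Zfp648 (0.0202), Fam189a2 (0.0303) and the crypt transcription factor gene Sox9 (0.0519). Atp2b1 was nearest to Slc10a2, the bile acid carrier of the gut (0.0546), 1700001L05Rik (0.0573) and Acer1 (0.0581). With 4 arrays, a small distance describes these pools and is no evidence of a link between the genes.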

How the data were processed

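RNA mixed from the colons of 3 mice per group was hybridised to 1 single-colour array each, with 200 ng of total RNA labelled with Cy3, per the labels' protocols. The labels give 9 weeks under sex and male under age, which were read the other way round. The deposited scanner files give each spot's intensity after background subtraction and detrending, with the scanner's error of it, for which the submitters' processing notes name Agilent Feature Extraction 11.5.1.1. A deposited table of the whole series holds the ratio of that intensity to the array's 75th percentile, and its values differ from the scanner values divided by the percentile by a factor of 1.00002 to 1.00014. The authors' files also hold flags (well above background, saturated, outlier), per the file headers. Probe coordinates are those of mm9, per the file headers.

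Control spots (1377 per array) and outlier spots (129 to 136) were left out. From each log2 intensity that of its array's 75th percentile was subtracted, spots of a probe were averaged, and 28720 of 39429 probes (well above background on 1 array or more) were kept. The brightest of its kept probes stood for a gene. RefSeq (GRCm38.p6) named 27502 probes through an accession, 3549 through a symbol and 404 through an older symbol, while 7974 have only the files' name. Ratios of 2 arrays have no test. A gene was counted past 2-fold when well above background on the higher array, with the lowest well-measured signal as a floor on the lower one. The 95% ranges use the scanner's error of both spots. The additive fit used limma 3.58.1 (lmFit and eBayes) in R 4.3.3 and was tested on simulated data. Other steps used Python 3.11.15.

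The members and the 9 pathway and 16 marker lists were chosen with earlier results of these data known. Named genes are all members with every probe, the 10 nearest profiles to S100g and 3 to each other member, up to 4 genes past 2-fold per pathway list and comparison, up to 3 per marker list, and Pla2g10. Alternatives were median scaling, quantile normalization, normexp (offset 50) with quantile normalization, the series table, stricter and no filters on dim probes, the mean of probes, a 4-fold threshold, and an intensity trend with robust pooling.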

Additional observations from a re-analysis of the deposited data

Results flagged for a closer look

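Among the 4 members measured on all arrays, S100g was the one whose response to DSS had opposite directions in the 2 genotypes. It was lower with DSS in X-KO and higher with DSS in WT, and the X-KO response minus the WT response was -2.98 on the brighter probe and -3.01 on the probe that overlaps it. S100g was chosen for its low value in X-KO DSS, so the lower X-KO side of this pattern describes that choice. Each group was 1 pool, so the difference was not tested. The 2 probes share most of their bases and count as 1 measurement.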

How the results depend on the processing

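The members' ratios, differences of responses and Cyp24a1 bounds were compared under the alternatives. Of these values 151 stayed within the scanner error, 1 left it and none that exceeded that error changed direction. The 1 was the S100g ratio in WT DSS over WT naive, 0.55 with normexp and quantile normalization, against 0.76. Many could not move: the series table and the changed filters returned the main values or nearly so, as did the mean of probes for genes with 1 probe. The S100g ratio in X-KO DSS over WT DSS ran from -3.83 with median scaling to -3.56 with normexp and quantile normalization. The DSS effects of -1.60 (Trpv6), -0.98 (Vdr) and -0.91 (Atp2b1) passed the limma threshold with a trend and robust pooling (adjusted p 0.00433, 0.0248 and 0.0419), and Trpv6 also with genes measured on all arrays (0.0157).

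Counts of all genes moved more. For X-KO DSS over WT DSS, 1127 higher and 486 lower genes became 547 and 267 with normexp and quantile normalization together, 736 and 247 with genes measured on all arrays, and 158 and 106 at 4-fold. For X-KO naive over WT naive, 250 and 231 became 137 and 123, 98 and 54, and 73 and 70 in the same order. For X-KO DSS over X-KO naive, 1257 higher and 1106 lower became 966 and 545 with that pair of changes and 419 and 169 at 4-fold. For WT DSS over WT naive, 754 higher and 1157 lower became 552 and 492 with that pair, 490 and 779 with genes measured on all arrays, and 204 and 162 at 4-fold. Median scaling turned that split to 952 higher and 841 lower, since it put the median of all genes at 0.12, against -0.02. The limma fit called 0 genes for DSS, against 1086 with genes measured on all arrays, 13 with no filter and 1532 with a trend and robust pooling, and 0 for genotype against 7 with a trend and robust pooling. Fewer genes are tested under the stricter filter, and the cause was not tested otherwise.

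No paired analysis was possible because each group holds 1 array. Leaving out an array leaves no residual degree of freedom and was not run.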

Other observations

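Steroid receptors and gut transcription factors, which regulate calcium and colon genes in other settings, were measured beside the members. Of 6 steroid receptor genes 5 were measured. Nr3c2 is the gene of the mineralocorticoid receptor that controls sodium uptake in the distal colon. It stood at 0.119 in X-KO DSS, 0.185 in WT DSS, 0.317 in X-KO naive and 0.306 in WT naive. Its log2 ratio was -1.41 in X-KO DSS over X-KO naive, the only call of that list, beside 4.99% of all genes lower there. Of 8 gut epithelial transcription factor genes, all measured, 0 were past 2-fold in any comparison, and their median was -0.42 in X-KO DSS over X-KO naive and -0.11 in WT DSS over WT naive.

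Of 10 coregulator genes of nuclear receptors, all measured, 1 was past 2-fold. This was Ep300, the gene of the acetyltransferase p300, lower in WT DSS than in WT naive (-1.05), as were 5.22% of all genes. The medians of the 10 coregulator genes were -0.40 in X-KO DSS over X-KO naive and -0.42 in WT DSS over WT naive, and 0.07 in X-KO DSS over WT DSS. In X-KO DSS over WT DSS, B and plasma cell markers had a median of 1.08 and fibroblast markers 0.79, with sums of 29.6 in X-KO DSS and 18.8 in WT DSS, and of 146 in X-KO DSS and 84.8 in WT DSS.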
